A study of Mus musculus with 15 samples.

Results

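Hnf4a and 8 further genes for transcription factors of hepatocyte identity were followed in liver RNA-seq counts of C57BL/6 mice under 3 feeding regimens. The 9 genes were taken by symbol from a deposited table of 35275 genes: the nuclear receptor genes Hnf4a and Nr5a2, the forkhead genes Foxa1, Foxa2 and Foxa3, the CCAAT/enhancer binding protein genes Cebpa and Cebpb, and the homeobox genes Onecut1 and Prox1. All 9 were found and all 9 passed the filter on low counts. Mice ate ad libitum (AL), or were put on intermittent fasting for 16 h (IF16) or on every-other-day fasting for 24 h (EOD), with 5 libraries a group. The regimen ran for 3 months, from 3 to 6 months of age, and no group carried a transgene or drug in the labels. The comparisons ask how liver gene expression differs between the regimens. Neither the origin of each library from its own animal nor the time since the last meal is in the labels, so p-values measure the spread among libraries, part of which may be technical.

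These factors form a network in which each binds enhancers or promoters of liver genes and of the other factors. HNF4A is a nuclear receptor needed for much of the adult hepatocyte programme, including lipoprotein, clotting factor and bile acid genes, and NR5A2 (LRH-1) is a receptor for bile acid and cholesterol handling genes. The FOXA proteins open chromatin at liver enhancers and take part in the fasting response, C/EBP-alpha drives metabolic genes of the resting hepatocyte, and C/EBP-beta also acts in the acute phase response and in regeneration. ONECUT1 (HNF6) and PROX1 act early in liver development and stay on in the adult, ONECUT1 under growth hormone control and PROX1 as a corepressor of HNF4A and NR5A2. Several of the genes are not limited to hepatocytes: Foxa1, Foxa2 and Onecut1 are also used in bile duct cells, and Prox1 in lymphatic endothelium. In whole liver, fewer cells of a type and less RNA per cell cannot be told apart.

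Library totals lay between 28129883 and 38147534 counts. AL replicates 4 and 5 stood apart from the other AL libraries: Saa1, an acute phase gene, read 2807 and 5607 CPM (TMM-scaled counts relative to the library total) there and 27.9 to 30.5 CPM in AL replicates 1 to 3. The summed FPKM (counts scaled by gene length and library total) of 13 acute phase genes was 25060 to 42810 against 5347 to 5679, of 11 macrophage and neutrophil markers 132 to 139.2 against 35.9 to 68.6, and of 9 endothelial markers 25.9 to 28.4 against 42.7 to 52.3. The comparisons with AL were also made without these 2 libraries, and those values stand beside the members and beside the gene lists whose counts moved. The markers of liver were present, with a summed FPKM of 17 hepatocyte markers of at least 61710 in each AL library. Mitochondrial transcripts took 10.01% to 15.1% of counts in AL, 8.98% to 11.5% in IF16 and 5.34% to 10.1% in EOD, a difference whose part in the EOD results was not tested.

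The promoters of the 4 genes that passed a test in at least 1 comparison, with or without those 2 libraries, are shown because they differ in the letters near the start. Each is the 250 bases before a RefSeq transcript start in GRCm38.p6, the same assembly as the mm10 of the count table, 5′ to 3′ on the gene's strand, with capitals marking motif matches. All 9 genes matched RefSeq, with 14 promoters between them, and 32841 promoters were scanned in the same way. All motifs were sought on both strands. The HNF1 motif was GTTAAT, present in 6.43% of all promoters. The nuclear receptor motif was AGGTCA, in 4607 of the 32841 promoters. The FOXA motif was TGTTTAC, in 3.17% of promoters. The C/EBP motif was TTGCNNAA, in 9.57% of promoters. The ONECUT motif was ATTGATT, in 2.62% of promoters. The TATA box was sought as TATAAA, in 12.4% of promoters. The E-box was sought as CACGTG, in 6.02% of promoters. None of these overlap in the windows shown. None of the 6 windows below meets an exon of the basic GENCODE annotation, and exons outside that basic set were not read. Of the upstream Hnf4a window, 49 bases lie inside the annotated Hnf4a gene.
Hnf4a upstream start, chr2:163506607-163506856, plus strand: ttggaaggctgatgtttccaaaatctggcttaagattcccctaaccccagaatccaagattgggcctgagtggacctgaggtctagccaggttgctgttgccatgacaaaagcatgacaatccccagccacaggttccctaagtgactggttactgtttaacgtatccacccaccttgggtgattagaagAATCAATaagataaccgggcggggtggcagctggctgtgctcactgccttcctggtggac
Hnf4a downstream start, chr2:163546905-163547154, plus strand: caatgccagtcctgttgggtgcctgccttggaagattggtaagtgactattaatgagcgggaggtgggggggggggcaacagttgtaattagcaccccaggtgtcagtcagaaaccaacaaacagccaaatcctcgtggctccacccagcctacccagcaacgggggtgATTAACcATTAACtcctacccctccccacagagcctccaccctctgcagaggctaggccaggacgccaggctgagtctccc
Nr5a2 upstream start, chr1:136960449-136960698, minus strand: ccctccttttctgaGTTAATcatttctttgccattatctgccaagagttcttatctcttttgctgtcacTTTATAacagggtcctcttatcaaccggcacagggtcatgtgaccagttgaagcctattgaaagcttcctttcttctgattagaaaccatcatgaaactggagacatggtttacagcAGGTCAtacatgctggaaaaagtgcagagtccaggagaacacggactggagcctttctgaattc
Nr5a2 downstream start, chr1:136953631-136953880, minus strand: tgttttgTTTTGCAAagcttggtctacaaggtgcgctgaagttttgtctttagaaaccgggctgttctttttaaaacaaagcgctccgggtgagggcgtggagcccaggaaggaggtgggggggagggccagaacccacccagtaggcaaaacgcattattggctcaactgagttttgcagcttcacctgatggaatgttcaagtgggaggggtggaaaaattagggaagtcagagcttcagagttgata
Cebpa, chr7:35119043-35119292, plus strand: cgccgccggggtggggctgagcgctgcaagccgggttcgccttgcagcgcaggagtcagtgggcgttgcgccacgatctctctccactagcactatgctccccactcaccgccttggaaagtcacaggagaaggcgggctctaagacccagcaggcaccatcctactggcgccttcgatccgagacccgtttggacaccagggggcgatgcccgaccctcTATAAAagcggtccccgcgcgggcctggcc
Foxa3, chr7:19023540-19023789, minus strand: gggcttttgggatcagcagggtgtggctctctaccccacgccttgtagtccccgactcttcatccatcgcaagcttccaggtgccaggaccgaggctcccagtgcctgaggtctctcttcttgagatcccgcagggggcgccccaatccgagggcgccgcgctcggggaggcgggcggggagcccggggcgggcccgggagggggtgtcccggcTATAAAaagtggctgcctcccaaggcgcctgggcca
The 2 Hnf4a starts lie 40298 bases apart. The upstream window held 1 ONECUT match, 60 bases before the start, and all of it lies inside the annotated antisense gene Hnf4aos. The downstream window, inside an Hnf4a intron, held 2 HNF1 matches, beginning 81 and 74 bases before the start. The counts are per gene and cannot say which of the starts was used.

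The 2 Nr5a2 windows, 6818 bases apart, held different matches. An HNF1 match, a TATA box on the other strand and a nuclear receptor match lay 236, 181 and 64 bases before the upstream start, and a C/EBP match lay 243 bases before the downstream start, inside an Nr5a2 intron. Cebpa and Foxa3 each had a TATA box in the reading direction, 30 and 36 bases before the start, and no other match, in windows of 66.4% and 68.8% G and C against a median of 52.4% over all promoters. The Cebpa window lies inside the annotated gene Gm45091. A match says only that the letters are present.

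Compared per length, Cebpa had the highest mean level of the 9 in every group and Onecut1 the lowest. In AL the mean FPKM was 193.1 for Cebpa (SD 38.9, n = 5), 92.1 for Hnf4a (SD 16.6), 87.7 for Cebpb (SD 21.3), 29.7 for Foxa3 (SD 17.1), 10.9 for Foxa2 (SD 3.23), 6.82 for Prox1 (SD 1.96), 5.71 for Foxa1 (SD 2.41), 5.66 for Nr5a2 (SD 2.06) and 2.01 for Onecut1 (SD 1.78). The order was the same in IF16, and in EOD it differed in 1 place, with Nr5a2 at 7.01 FPKM above Foxa1 at 5.40 FPKM. Libraries of neighbours overlapped for Hnf4a and Cebpb and from Foxa2 down to Nr5a2 in each group. Those of Cebpa and Hnf4a were apart in AL and IF16 and overlapped in EOD, those of Foxa3 were apart from Cebpb above and Foxa2 below throughout, and Onecut1 overlapped its neighbour in AL only.

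**Figure D1:**
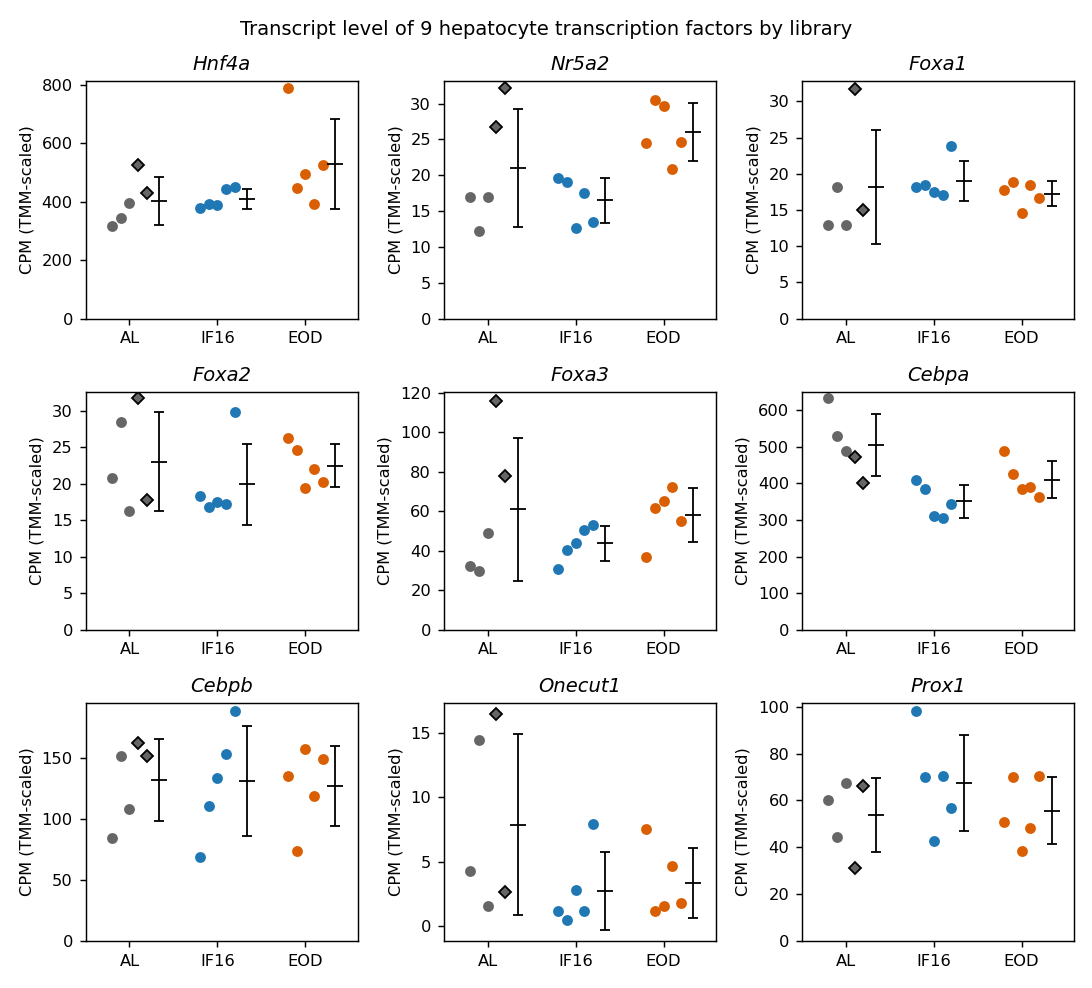
TMM-scaled CPM of each gene (vertical axes, linear, a separate scale for each gene) in the 15 libraries, by feeding group. Circles are libraries, diamonds are AL replicates 4 and 5, and the bar beside each group is the mean with 1 SD (n = 5); the EOD libraries of Nr5a2 all lie above the IF16 libraries, and those of Cebpa in IF16 lie below the AL mean.

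Most of the 9 transcripts showed no difference past the threshold between regimens. Cebpa fell in IF16 relative to AL, and Nr5a2 was higher in EOD than in IF16. With all 15 libraries, no member passed in EOD against AL, and 4 did once AL replicates 4 and 5 were left out. A gene passed at a Benjamini-Hochberg adjusted p under 0.05 over 13837 tested genes, by edgeR's quasi-likelihood test.

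In IF16 against AL, 1 of 9 members passed, where 3.5% of all tested genes did, and the median log2 fold change of the members was -0.21 against -0.000478 over all genes. The negative median depends on AL replicates 4 and 5. Without them Nr5a2, Foxa3 and Cebpb turned positive (0.11, 0.25 and 0.20), and only Foxa2, Cebpa and Onecut1 stayed negative. In EOD against AL, 0 of 9 passed by edgeR and also by DESeq2, where 35.2% of tested genes did, and 2 had an unadjusted edgeR p under 0.05, Hnf4a and Cebpa. In EOD against IF16, 1 of 9 passed, where 16.1% of tested genes did. The libraries of no member were apart in either comparison with AL, where those of 5.78% (IF16) and 18.6% (EOD) of tested genes were, and those of 1 member were apart in EOD against IF16, where 10.9% were. Both comparisons with AL use the same 5 AL libraries and are not independent of each other.

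**Figure D2:**
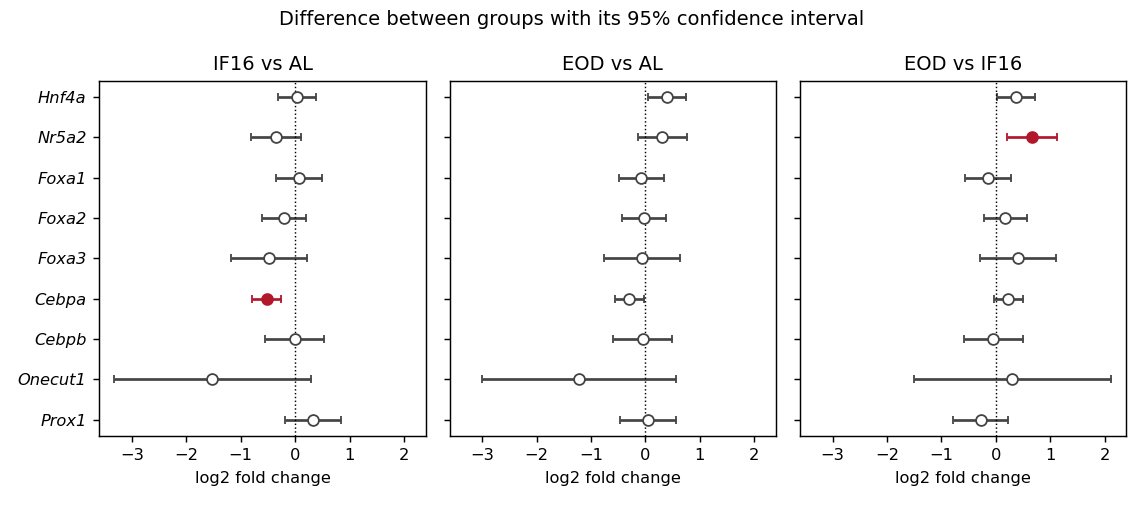
Log2 fold change (horizontal axis) of the 9 genes in the 3 comparisons, with the 95% confidence interval of the edgeR fit. Filled red points passed the adjusted threshold: Cebpa in IF16 vs AL at -0.52 and Nr5a2 in EOD vs IF16 at 0.66; the Onecut1 intervals are the widest.

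Hnf4a, the nuclear receptor gene at the centre of the network, read 316, 343, 396, 524 and 429.7 CPM in AL replicates 1 to 5. In IF16 it read 378, 391, 387, 442 and 448 CPM, inside the range of AL. In EOD it read 789, 445, 493.3, 392 and 524 CPM, so that the highest library of all was an EOD one and the groups overlapped. The log2 fold change was 0.03 in IF16 against AL (SE 0.166, adjusted p = 0.954), with an interval of -0.32 to 0.38, and 0.23 without AL replicates 4 and 5 (adjusted p = 0.569). In EOD it was 0.40 against AL (SE 0.167, adjusted p = 0.0725) and 0.37 against IF16 (SE 0.166, adjusted p = 0.137), both short of the threshold, with 4 of 5 EOD libraries above either mean. Without AL replicates 4 and 5 the EOD difference from AL was 0.62 and passed (adjusted p = 0.0173), and it also passed without AL replicate 4 alone or EOD replicate 4 alone (adjusted p = 0.0271 and 0.0345). In the other 13 of 15 fits with 1 library left out it did not pass. Over the 15 it ran from 0.21 to 0.51, with an adjusted p of up to 0.269. The fit without AL replicates 4 and 5 keeps EOD replicate 1, the highest library at 789 CPM, and was not repeated without it.

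Hnf4aos, the annotated antisense transcript that covers the upstream Hnf4a start, was lower in EOD than in IF16 (log2 fold change -0.75, SE 0.189, adjusted p = 0.0126). Its mean was 7.47 FPKM in EOD, 12.6 in IF16 and 9.62 in AL, and its other comparisons did not pass (adjusted p = 0.161 for EOD against AL and 0.262 for IF16 against AL). Hnf4a itself lay on the other side in that comparison, at 0.37. The strand setting of the counting is not known from the labels, so reads of the 2 genes may be mixed where they overlap.

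Nr5a2, the receptor gene of bile acid and cholesterol control, read 17.0, 12.2, 16.9, 26.8 and 32.1 CPM in AL replicates 1 to 5, with replicates 4 and 5 above the rest. It read 19.6, 19.1, 12.7, 17.5 and 13.5 CPM in IF16, and 24.5, 30.5, 29.6, 20.85 and 24.6 CPM in EOD. The EOD and IF16 libraries did not overlap, and EOD was 1.58-fold higher (log2 fold change 0.66, SE 0.217, adjusted p = 0.0479). That call stood close to the threshold: it was lost without any 1 of IF16 replicates 2, 3, 4 or 5 or EOD replicates 1, 2 or 3, with the adjusted p reaching 0.115 and the log2 fold change staying between 0.59 and 0.75. It was also lost without the filter on low counts (adjusted p = 0.0875) and by limma on unfiltered FPKM (adjusted p = 0.0947). Against AL the log2 fold change was 0.31 in EOD (SE 0.216, adjusted p = 0.28) and -0.35 in IF16 (SE 0.217, adjusted p = 0.425). Without AL replicates 4 and 5, Nr5a2 was 1.73-fold higher in EOD than in AL (log2 fold change 0.79, adjusted p = 0.00352), and the sign in IF16 turned, to 0.11 (adjusted p = 0.807).

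Foxa3, the forkhead gene with the highest level per length in liver, was the most uneven of the 3 within AL. It read 32.3, 29.9, 48.8, 115.7 and 77.9 CPM in AL replicates 1 to 5, where the 2 acute phase libraries were the highest of all 15. It read 31.0, 40.4, 44.1, 50.7 and 53.2 CPM in IF16 and 36.6, 61.8, 65.0, 72.5 and 54.8 CPM in EOD, so that all groups overlapped. None of its comparisons passed: the log2 fold change was -0.47 in IF16 against AL (SE 0.325, adjusted p = 0.479), -0.07 in EOD against AL (adjusted p = 0.894) and 0.41 in EOD against IF16 (adjusted p = 0.429). Without AL replicates 4 and 5 the EOD value turned to 0.68, 1.60-fold higher, and passed (adjusted p = 0.0285), and the IF16 value turned to 0.25 (adjusted p = 0.607).

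Foxa1 and Foxa2, the pioneer factor genes of early liver development, had 1 high library in some groups. Foxa1 lay between 13.0 and 31.7 CPM in AL, 17.1 and 23.8 in IF16 and 14.5 and 18.9 in EOD. AL replicate 4 and IF16 replicate 5 each stood alone at the top of their group, and no comparison passed (log2 fold changes from -0.14 to 0.07, adjusted p from 0.675 to 0.898). Foxa2 lay between 16.3 and 31.7 CPM in AL, 16.9 and 29.8 in IF16 and 19.4 and 26.3 in EOD. IF16 replicate 5 was again the high library, and the log2 fold changes ran from -0.21 to 0.17 (adjusted p from 0.573 to 0.914). With AL replicates 4 and 5 left out, Foxa1 stood at 0.38 in IF16 and 0.26 in EOD against AL (adjusted p = 0.208 and 0.204), and Foxa2 at -0.13 and 0.069 (adjusted p = 0.806 and 0.827).

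Foxa3 made up most of the forkhead messages in nearly every library, with a mean share of summed Foxa1, Foxa2 and Foxa3 FPKM of 61.6% (SD 12.8, n = 5) in AL, against 58.3% (SD 5.26) for IF16 and 63.4% (SD 7.94) for EOD. The lowest share was 43.5%, in AL replicate 2, and the highest 74.5%, in AL replicate 5. The groups overlapped, and no pair differed in a two-sided exact permutation test (adjusted p = 0.724, 0.833 and 0.724 for IF16 against AL, EOD against AL and EOD against IF16, over 6 tests that could not go below a raw 0.00794).

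Cebpa, the gene of the C/EBP factor of resting hepatocytes, was the member with the clearest difference. It read 633, 529, 489, 472 and 399.9 CPM in AL replicates 1 to 5, and 409, 385, 311, 306 and 343 CPM in IF16. Only IF16 replicate 1 reached above the lowest AL library, AL replicate 5, and all 5 IF16 libraries were under the AL mean. Cebpa fell by 0.52 on the log2 scale in IF16, 1.44-fold lower than in AL (SE 0.127, adjusted p = 0.0276, 95% interval -0.79 to -0.26). Without AL replicates 4 and 5 it was 1.56-fold lower (adjusted p = 0.0178). The call was lost when AL replicate 1, or 1 of IF16 replicates 3, 4 and 5, was left out (highest adjusted p = 0.0773), while the log2 fold change stayed between -0.61 and -0.43.

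In EOD, Cebpa read 489, 427, 384, 389 and 364 CPM, all under the AL mean and overlapping with AL. The log2 fold change against AL was -0.30 (SE 0.127, adjusted p = 0.076), and it passed without AL replicates 4 and 5 at -0.40 (adjusted p = 0.0378) as well as without AL replicate 5 or EOD replicate 1 alone. In the other 13 of 15 fits with 1 library left out it did not pass. Over the 15 it ran from -0.37 to -0.18, with an adjusted p of up to 0.28. EOD and IF16 overlapped for Cebpa (log2 fold change 0.23, SE 0.127, adjusted p = 0.235), so a smaller difference in EOD than in IF16 was not shown.

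Endothelial markers moved beside the fall of Cebpa: 4 of 9 rose in IF16 against AL, where 3.5% of tested genes passed in either direction. Without AL replicates 4 and 5, where 2.59% of tested genes passed, 3 of the 9 markers rose. Their summed FPKM was 63.4 to 74.7 in IF16, 42.7 to 52.3 in AL replicates 1 to 3 and 25.9 to 28.4 in AL replicates 4 and 5. Lyve1 and Clec4g, of liver sinusoidal endothelium, were 2.24-fold and 1.82-fold higher (adjusted p = 0.00396 and 0.00164), and at most 1 of the 9 markers was at 0 in any library. In EOD against AL 5 of 9 rose, where 35.2% of all tested genes passed, and also 5 without those 2 libraries, where 30.3% passed. The summed FPKM of the 9 in EOD was 63.9 to 77.9. Of 9 tested macrophage and neutrophil markers, 0 rose and 1 fell in IF16 against AL, and 0 passed without AL replicates 4 and 5. None of 17 hepatocyte markers passed in IF16 against AL, and the part of the endothelial markers in the Cebpa difference was not tested.

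Cebpb, the acute phase and regeneration factor gene of the same family, ranged from 84.8 to 162.5 CPM in AL, 68.6 to 189.0 in IF16 and 74.2 to 157.6 in EOD. It spread more within a group than between groups, with log2 fold changes of -0.01, -0.05 and -0.04 (adjusted p = 0.992, 0.899 and 0.928 for IF16 against AL, EOD against AL and EOD against IF16). AL replicates 4 and 5, at 162.5 and 151.8 CPM, were the 2 highest AL libraries, closely followed by AL replicate 2 at 151.6 CPM. Without those 2 libraries the differences from AL were 0.20 in IF16 and 0.17 in EOD (adjusted p = 0.793 and 0.693). The Tmem189 gene, which overlaps Cebpb on the other strand, was higher in EOD than in IF16 (log2 fold change 0.50, adjusted p = 0.0371), at a mean of 7.77 against 5.44 FPKM, where Cebpb stood at 84.6 and 86.6 FPKM. The Tmem189 call was lost without any 1 of IF16 replicates 1, 2, 3 or 5 or EOD replicates 1, 3 or 5 (highest adjusted p = 0.0981), and by limma with any pseudocount or filter tried (highest adjusted p = 0.153).

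The balance of the 2 C/EBP messages, as log2 of Cebpb FPKM over Cebpa FPKM, averaged -1.15 (SD 0.602, n = 5) in AL, against -0.68 (SD 0.703) for IF16 and -0.92 (SD 0.512) for EOD. Cebpa exceeded Cebpb in all 15 libraries, and the ratio Cebpb over Cebpa ran from 0.234 in AL replicate 1 to 0.964 in IF16 replicate 5. Within IF16 alone it ran from 0.294 to 0.964, so the groups overlapped. In two-sided exact permutation tests no pair of groups differed (adjusted p = 0.724 for each).

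**Figure D3:**
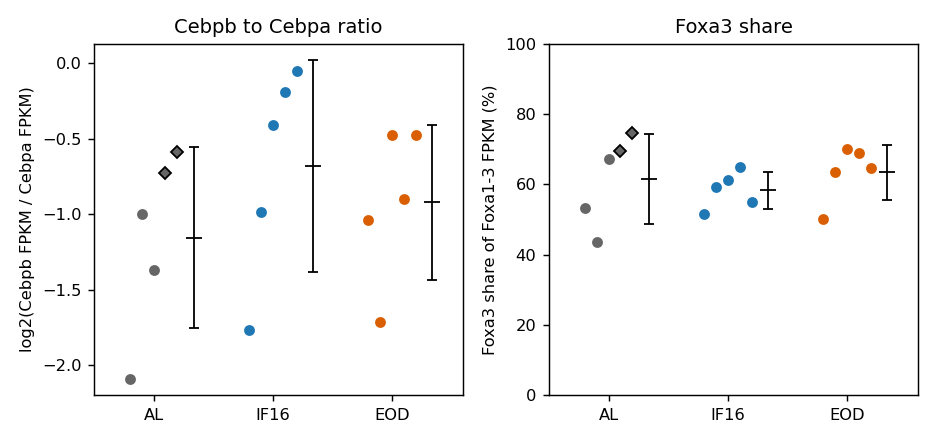
Left, log2 of Cebpb FPKM over Cebpa FPKM; right, Foxa3 share (%) of the summed FPKM of Foxa1, Foxa2 and Foxa3, for each of the 15 libraries by group. Circles are libraries, diamonds are AL replicates 4 and 5, and bars are the mean with 1 SD (n = 5); groups overlap in both, with the lowest Foxa3 share at 43.5% and the highest at 74.5% both in AL.

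Onecut1, the gene of HNF6, was the lowest and most variable member. It read 4.27, 14.4, 1.53, 16.5 and 2.67 CPM in AL replicates 1 to 5, from 47 to 477 counts. In IF16 it read 1.20, 0.489, 2.83, 1.15 and 7.94 CPM and in EOD 7.57, 1.16, 1.56, 4.71 and 1.76 CPM. Each group had low libraries and 1 or 2 high ones, and the coefficient of variation was 89.2%, 112% and 82% in AL, IF16 and EOD. The log2 fold changes of -1.52 in IF16 against AL (SE 0.837, adjusted p = 0.361) and -1.22 in EOD against AL (SE 0.827, adjusted p = 0.272) were the largest among the members in size and did not pass, with intervals of -3.33 to 0.28 and -3.01 to 0.56. They were -1.29 and -0.97 without AL replicates 4 and 5 (adjusted p = 0.524 and 0.449). Onecut1 in EOD against IF16 stood at 0.30 (adjusted p = 0.845).

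Prox1, the corepressor gene, ranged from 31.0 to 67.3 CPM in AL, 42.5 to 98.1 in IF16 and 38.3 to 70.5 in EOD. AL replicate 4 held its lowest value and IF16 replicate 1 its highest. None of the 3 comparisons passed (log2 fold changes 0.33, 0.05 and -0.28, adjusted p = 0.508, 0.899 and 0.464). The differences from AL were 0.25 in IF16 and -0.014 in EOD without AL replicates 4 and 5 (adjusted p = 0.663 and 0.974). Its antisense neighbour Prox1os, at 7.37 to 9.34 FPKM in the group means, did not pass either, nor did RP23-190F21.1, a further antisense gene inside Prox1 with 7 to 32 counts a library.

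Leaving out AL replicates 4 and 5 moved every member's difference from AL. Of the 9 genes, 5 had both libraries outside the range of AL replicates 1 to 3 and 4 had 1 of them there. The same count was not made over all tested genes, so this is not shown to be particular to the members. In EOD against AL, 4 of 9 members then passed, where 30.3% of tested genes did: Hnf4a, Nr5a2 and Foxa3 higher and Cebpa lower. In IF16 against AL, 1 of 9 passed, where 2.59% did, and in EOD against IF16, 1 of 9, where 16.8% did. The 2 libraries were left out for their acute phase transcripts, after the data had been seen, and the part of those transcripts in the difference was not tested. Neutrophil genes went with them: S100a8 and S100a9 were 5.60-fold and 5.96-fold lower in EOD than in AL with all libraries (adjusted p = 0.0252 and 0.0454), and without the 2 libraries their log2 fold changes were 0.21 and 0.98 (adjusted p = 0.7 and 0.0612). Of 13 acute phase genes, 1 rose and 6 fell in EOD against AL (53.8% called, where 35.2% of all tested genes passed). Without those libraries 3 rose and 0 fell.

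**Figure D4:**
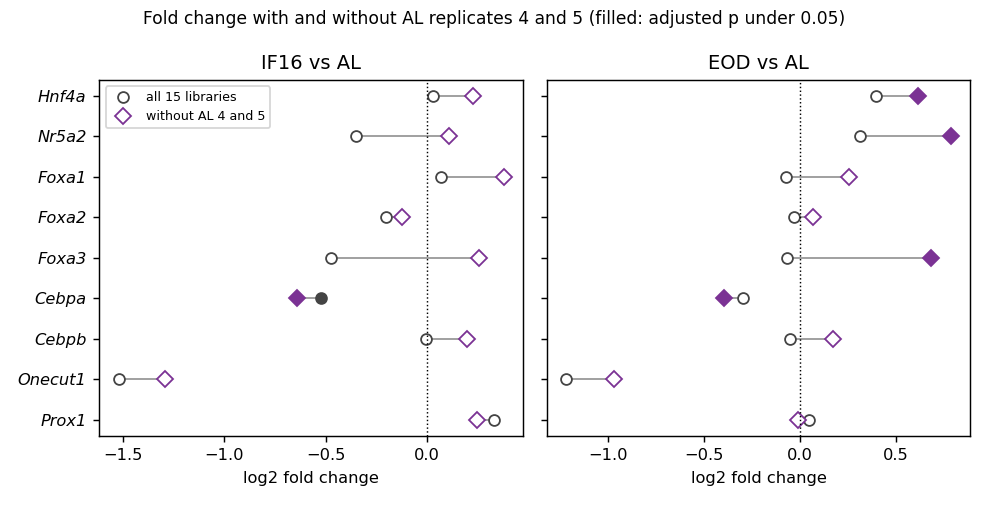
Log2 fold change of the 9 genes against AL (horizontal axis) in IF16 and EOD, from all 15 libraries (circles) and without AL replicates 4 and 5 (diamonds); filled symbols passed an adjusted p of 0.05. In EOD the diamonds of Hnf4a, Nr5a2, Foxa3 and Cebpa are filled and no circle is; Foxa3 moved from -0.07 to 0.68.

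Among 20 other tested liver transcription factor genes, 0 passed in IF16 against AL, where 3.5% of all tested genes did (3 had an unadjusted p under 0.05). In EOD against AL 4 rose and 2 fell, where 35.2% of all tested genes passed. In EOD against IF16, 2 were higher and 1 lower (15% called, where 16.1% passed). Nr0b2, the gene of the corepressor SHP, rose 2.04-fold in EOD against AL (31.0 CPM, SD 14.9, to 63.1 CPM, SD 10.6; adjusted p = 0.0115). Nr2f6, an orphan nuclear receptor gene, rose 1.68-fold (adjusted p = 0.006), and Cebpg, a further C/EBP gene, 1.27-fold (adjusted p = 0.0116). Nr1h4, the gene of the bile acid receptor FXR, was 1.33-fold lower in EOD than in IF16 (adjusted p = 0.0242) with no overlap of the libraries, a call lost without IF16 replicate 3, EOD replicate 1 or EOD replicate 3 (highest adjusted p = 0.0728). The share that passed in EOD against AL, 30%, was below that of all genes. Among the 20, 4 were higher and 0 lower in EOD than in AL without AL replicates 4 and 5, where 30.3% of all tested genes passed.

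Of 17 coregulator genes, 0 passed in IF16 against AL, where 3.5% of all tested genes did (2 at an unadjusted p under 0.05). In EOD against AL 1 rose and 3 fell (23.5% called, below the 35.2% of all tested genes). Hdac3, a histone deacetylase gene, fell in EOD, 1.21-fold lower than in AL (adjusted p = 0.0201), and Nrip1, a nuclear receptor corepressor gene, was 1.32-fold higher (adjusted p = 0.0273). The Hdac3 call was lost without AL replicate 1, AL replicate 2 or EOD replicate 2 (highest adjusted p = 0.0532) and without the filter on low counts (adjusted p = 0.058). That of Nrip1 was lost without AL replicate 1, AL replicate 5, EOD replicate 1 or EOD replicate 2 (highest adjusted p = 0.0789), without AL replicates 4 and 5 together (adjusted p = 0.0695) and by limma (adjusted p from 0.0522 to 0.0786). Without those 2 libraries 1 coregulator gene was higher and 2 were lower in EOD than in AL, where 30.3% of all tested genes passed.

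Known targets of the factors moved in both directions. Of 28 HNF4A targets, 1 rose in IF16 against AL (3.57% called, where 3.5% of all tested genes passed). In EOD against AL 5 rose and 2 fell (25% called, below the 35.2% of all genes). In EOD against IF16, 1 was higher and 2 lower (10.7% called, where 16.1% passed). Baat and Slc27a5, which conjugate and activate bile acids, rose 1.46-fold and 1.43-fold in EOD (adjusted p = 0.00241 and 0.000465), and Slc27a5, the 1 called in IF16, was 1.27-fold higher there (adjusted p = 0.0457). The IF16 call was lost in 14 of 15 fits with 1 library left out, all but that without EOD replicate 5 (highest adjusted p = 0.129), without the filter on low counts (adjusted p = 0.0979) and with DESeq2's size factors (adjusted p = 0.0514). Cyp7a1, the rate-limiting enzyme of bile acid synthesis and also an NR5A2 target, fell in EOD, 2.63-fold lower than in AL (49.3 CPM, SD 13.2, to 18.8 CPM, SD 3.8; adjusted p = 0.00113). Without AL replicates 4 and 5 the counts in EOD against AL were 7 higher and 3 lower, where 30.3% of all tested genes passed. In that fit 0 HNF4A targets passed in IF16 against AL, where 2.59% of all tested genes did.

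Of 10 NR5A2 targets, 4 rose and 1 fell in EOD against AL (50% called, where 35.2% of all tested genes passed). In IF16 against AL 0 passed, where 3.5% of all tested genes did (4 at an unadjusted p under 0.05). The EOD counts were 4 and 1 again without AL replicates 4 and 5, where 30.3% of all tested genes passed. In that fit 1 target was higher in IF16 than in AL, where 2.59% passed. Scarb1, the HDL receptor gene, rose 1.76-fold (adjusted p = 7.09e-05) and was 1.44-fold higher in EOD than in IF16 (adjusted p = 0.00629). Apom, a lipoprotein gene, rose 2.19-fold (adjusted p = 0.0106). In EOD against IF16, where Nr5a2 itself passed, 1 of the 10 was higher and 1 lower (20% called, where 16.1% of all tested genes passed). The lower 1, Cyp7a1, was 3.08-fold lower (adjusted p = 0.00121).

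Of 13 FOXA targets, 2 rose and 3 fell in EOD against AL (38.5% called, where 35.2% of all tested genes passed). In EOD against IF16, 0 rose and 3 fell (23.1% called, where 16.1% passed). The glucose transporter gene Slc2a2 was 2.00-fold lower in EOD than in AL (191 CPM, SD 38.2, to 95.7 CPM, SD 9.36; adjusted p = 0.000239). Afp, a fetal liver gene, was 2.34-fold lower at a low level, 0.699 against 1.63 CPM (adjusted p = 0.0011). None of the 13 passed in IF16 against AL by edgeR, where 3.5% of all tested genes did, and 4 had an unadjusted p under 0.05. When AL replicates 4 and 5 were left out, 3 were higher and 3 lower in EOD than in AL, where 30.3% of all tested genes passed.

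Of 13 C/EBP targets, 0 passed in IF16 against AL (5 at an unadjusted p under 0.05), the comparison in which Cebpa fell. Only 3.5% of all tested genes passed there, so 0 of 13 does not say whether the targets followed Cebpa. In EOD against IF16, 1 was higher and 2 lower (23.1% called, where 16.1% of all tested genes passed). In EOD against AL, 3 fell (23.1% called, where 35.2% passed). There Gys2, the liver glycogen synthase, was 2.24-fold lower (adjusted p = 0.000145), and Ttr, a plasma transport protein gene in 5 of the lists, 1.33-fold lower (adjusted p = 0.0115). Orm1, an acute phase gene, was 2.36-fold lower (adjusted p = 0.0196) from an AL mean of 1474 CPM with an SD of 1080. The Orm1 call was lost without AL replicate 5 (adjusted p = 0.0534), without AL replicates 4 and 5 (adjusted p = 0.433) in a fit of the 2 groups alone (adjusted p = 0.0586) and by limma on unfiltered FPKM (adjusted p = 0.0661). Without those 2 libraries 1 C/EBP target was higher and 3 were lower in EOD than in AL, where 30.3% of all tested genes passed. Of 6 ONECUT1 targets, 2 fell in EOD against AL (33.3% called, where 35.2% of all tested genes passed). They were Ttr and Pfkfb1 (1.49-fold lower, adjusted p = 0.0176, and 0.0524 by limma on unfiltered FPKM). The target lists share genes and were drawn up with earlier results of these data known.

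Of 17 hepatocyte markers, 2 rose and 1 fell in EOD against AL (17.6% called, below the 35.2% of all tested genes). Without AL replicates 4 and 5 the counts were 9 and 1, where 30.3% of all tested genes passed. The list includes Hpx, also on the acute phase list, and Fgg, which was higher in those 2 libraries than in AL replicates 1 to 3. The part of such genes in the counts was not tested. Tdo2, a tryptophan-degrading enzyme gene, rose 1.91-fold and Apoh 1.37-fold (adjusted p = 0.000262 and 0.00105). Of 10 tested bile duct markers, 1 rose in EOD against AL (10% called), Epcam at 2.04 against 1.23 CPM (adjusted p = 0.0243). In the other comparisons 0 passed by edgeR (1 at an unadjusted p under 0.05 in each). There 3.5% (IF16 against AL) and 16.1% (EOD against IF16) of all tested genes passed. The Epcam call was lost without AL replicate 2, AL replicate 5 or EOD replicate 3 (highest adjusted p = 0.0796) and without AL replicates 4 and 5 together (adjusted p = 0.0819). The summed FPKM of all 12 was 27.1 to 42.3 over the libraries, with up to 2 at 0. Of 6 pancreatic acinar markers, whose cells also use Foxa2 and Nr5a2, Cela1 was above 0 in every library. In EOD replicates 1 and 3, 1 of the 6 was at 0, against 4 or 5 in each other library. Ctrb1 reached 18 counts and Pnlip 9 in EOD, against 8 and 0 in AL. The part of acinar cells in the EOD results was not tested.

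The genes that varied most like each member were sought among 10812 protein-coding genes over the 15 libraries, by Pearson's r of log2 CPM. Libraries share their regimen and processing, so r is a description. Onecut1 went most closely with Cish, a suppressor of cytokine signalling gene (r = 0.91, Spearman's rho 0.907), which read 14.99 and 30.6 CPM in AL replicates 2 and 4, where Onecut1 was highest, and 0.816 CPM in AL replicate 3. Cish was also first for Foxa2 (r = 0.842), and Onecut1 was among its 3 nearest (r = 0.814, rho 0.775). Without the 2 libraries farthest from the median of the member, these values were 0.837, 0.757 and 0.717.

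Nr5a2 went with Fndc3b, Fgg and Xpnpep3 (r = 0.893, 0.892 and 0.89). Fgg, the fibrinogen gamma chain gene, read 3775 and 4191 CPM in AL replicates 4 and 5, 1158 to 1916 CPM in AL replicates 1 to 3, 1738 to 2126 CPM in IF16 and 2356 to 3668 CPM in EOD, and r with Nr5a2 was 0.859 without AL replicates 4 and 5. Foxa3 went with Sdc4, a cell surface proteoglycan gene, Mt2, a metallothionein gene, and Traf2 (r = 0.891, 0.864 and 0.846), which dropped to 0.815, 0.731 and 0.687 without those 2 libraries. For Foxa1 and Prox1 the values rested on few libraries. Rnf39 had r = 0.845 with Foxa1 over all and 0.625 without the 2 farthest, and Parvb had 0.771 and 0.52 with Prox1.

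The nearest genes of Hnf4a were Mical3, Rnf217 and Abt1 (r = 0.879, 0.849 and 0.848), those of Cebpa included Zfp64 and Dbr1 (0.857 and 0.849), those of Cebpb Gadd45g, Kctd15 and Slc25a51 (0.83, 0.818 and 0.815), and those of Prox1 Parvb, Cdca7 and Nde1 (0.771, 0.759 and 0.738). Among the members themselves, Foxa2 and Onecut1 had the highest r, followed by Foxa1 and Foxa2 (r = 0.697, rho 0.586). Prox1 and Onecut1 went in opposite directions (r = -0.667, rho -0.711), as did Prox1 and Cebpb (r = -0.569). Hnf4a had r = 0.513 with Nr5a2 and -0.132 with Cebpa.

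**Figure D5:**
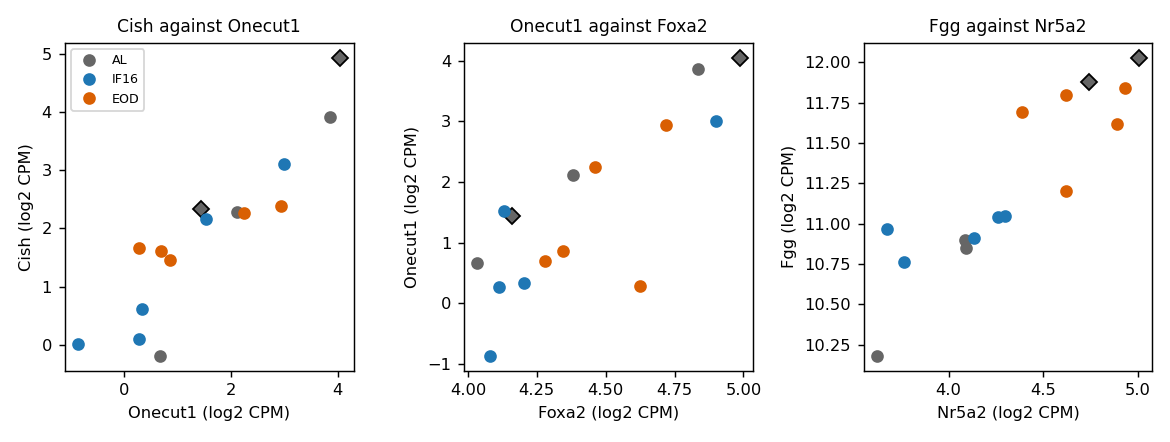
Log2 CPM (both axes) of Cish against Onecut1, Onecut1 against Foxa2 and Fgg against Nr5a2, 1 point a library (n = 15) coloured by group, with diamonds for AL replicates 4 and 5. Libraries high in the first gene are high in the second, at r = 0.91, 0.814 and 0.892.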

How the data were processed

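Liver mRNA was measured in 15 libraries, 5 per group. The authors deposited whole-number counts per Ensembl gene and FPKM values; the FPKM equal count over gene length and library total within a relative tolerance of 1e-06 in 100% of cells above 0. The submitters' processing notes name STAR 2.5, HTSeq 0.6.1, DESeq2 and mm10 without a role, and no source read here gives the strand handling. Totals of 28129883 to 38147534 counts make 3 counts worth 0.0786 to 0.107 CPM.

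In R 4.3.3, edgeR 4.0.16 (filterByExpr, minimum count 10; TMM; glmQLFit, robust; glmQLFTest) was fitted once to all 15 libraries, with Benjamini-Hochberg adjustment over 13837 genes. SEs are the absolute log2 fold change over the root of F. DESeq2 1.42.0, limma 3.58.1 on log2 FPKM, other filters, a replicate block and left-out libraries were alternatives. Ratios were compared by exact permutation. The scripts were tested on simulated data.

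The members and lists were chosen with earlier results of these data known. Named genes are the members, up to 3 genes of smallest p past the threshold per list and comparison, the 3 genes of highest r per member (protein-coding, mean of at least 1 CPM) and genes overlapping a member; some genes that this rule takes are not reported here. Adgre1 was read by its identifier.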

Additional observations from a re-analysis of the deposited data

Results flagged for a closer look

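Of 33 sets of 5 libraries (each of the 9 genes, the C/EBP ratio and the Foxa3 share, in each group), 3 held 1 library farther from the rest than Dixon's test allows at 0.71 of the range, and chance gives about 1 in 20. Foxa1 read 31.73 CPM in AL replicate 4, above 12.96 to 18.2 CPM in the other AL libraries. Foxa1 read 23.82 CPM in IF16 replicate 5, above 17.1 to 18.47 CPM in the rest of IF16. Foxa2 read 29.81 CPM in the same IF16 library, above 16.85 to 18.35 CPM in the rest.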

How the results depend on the processing

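The number of genes called in IF16 against AL was 484, 939 by DESeq2, 261 by limma without a filter and 241 to 619 with 1 library left out. In EOD against AL it was 3913 to 5726 and in EOD against IF16 1418 to 3383 with 1 library left out. Members called ran from 0 to 1 in each comparison with 1 library left out. In IF16 against AL, 0 were called by limma without a filter, where Cebpa had an adjusted p of 0.1. In EOD against IF16, 0 were called without a filter, by limma without one and with the replicate block, where Nr5a2 had an adjusted p of 0.0875, 0.0947 and 0.0866. In EOD against AL, 4 were called without AL replicates 4 and 5, and 1, Cebpa, with the replicate block (adjusted p = 0.0233). Same-numbered libraries did not pair: r of their deviations was -0.13 to 0.218 over 15 pairs, 5 of them over 0.1, and 3 of 15 libraries went best with their own number.

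The signs of some differences turned, and the cause was not tested. Without AL replicates 4 and 5 the log2 fold change in IF16 against AL was 0.11 for Nr5a2, 0.25 for Foxa3 and 0.20 for Cebpb, and in EOD against AL 0.26 for Foxa1, 0.069 for Foxa2, 0.68 for Foxa3, 0.17 for Cebpb, -0.014 for Prox1, 0.21 for S100a8 and 0.98 for S100a9. The Foxa3 share of IF16 less that of AL became 3.67 percentage points. With the block Foxa3 was at 0.061 in EOD against AL and Cebpb at 0.019 in EOD against IF16; Foxa3 was at 0.075 by limma in EOD against AL with a pseudocount of 1, with or without a filter, and 0.082 with 0.1. Cebpb in IF16 against AL was 0.00085 without a filter.

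With 1 library left out, the range crossed 0 in EOD against AL for Cebpb (-0.16 to 0.094), Foxa1 (-0.17 to 0.22), Foxa2 (-0.13 to 0.11), Foxa3 (-0.24 to 0.30), Prox1 (-0.10 to 0.16), Prox1os (-0.024 to 0.16), the C/EBP ratio (-0.00075 to 0.43) and the Foxa3 share (-2.75 to 5.12 points). It also did in IF16 against AL for Cebpb (-0.17 to 0.16), Foxa1 (-0.041 to 0.36) and Hnf4a (-0.047 to 0.14), and in EOD against IF16 for Cebpb (-0.19 to 0.12), Onecut1 (-0.26 to 1.26) and RP23-190F21.1 (-0.073 to 0.23). In counts simulated for EOD against AL over 13726 genes, the test called 34.6% of 81 genes changed 1.5-fold and 77.8% of 54 changed 2-fold. Far fewer genes were changed there than were called in the real data. These shares therefore do not say how often a change in Cebpa or another member would be called.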
